A study of Pomatostomus ruficeps with 28 samples.

Results

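In the blood of chestnut-crowned babbler nestlings (Pomatostomus ruficeps), 5228 of 1564780 deposited CpG sites (0.334%) had a median coverage of 40 or more over the nestlings with a value, nestling 79687 left out. They were chosen by their coverage, a measured value, as candidates for sequence that occurs in more copies than the assembly holds. The remaining 1559552 sites are called the other sites. The high-coverage sites lay on 1069 of 22694 scaffolds (4.71%).

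The study sequenced DNA from blood samples after an enzymatic conversion that makes cytosines without a methyl group read as thymine. It compared 19 nestlings raised by a group of carers with 9 raised by a pair, all sampled in the wild at 14 to 20 days of age. Per the paper, eggs were taken from the nests late in incubation and hatched in an incubator. The hatchlings were weighed, marked by clipped toenails and put into a nest. Some nestlings had been moved to unrelated nests at hatching, and which ones was not used here. The labels give the tissue as blood and the paper speaks of red blood cells, which carry a nucleus in birds, but no separation of cells is described in the sources used here. A change in the mix of blood cells and a change of methylation within cells cannot be told apart.

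DNA methylation at CpGs is the addition of a methyl group to a cytosine that is followed by guanine. In vertebrates most CpGs outside CpG islands are highly methylated, repeats among them. When near-identical copies of a sequence are merged into a single copy in a genome assembly, reads from all copies can pile up there, and a percentage read from such a pile is an average over copies. No genome sequence or annotation was used here, so whether these sites lie in repeats, genes or promoters was not tested. In converted reads a thymine of the genome and an unmethylated cytosine cannot be told apart.

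In 27 nestlings the deposited coverage counted each methylated read 2 times. With methylated reads weighted by 2 and unmethylated reads by 1, and with each product taken as 0 below 10, whole numbers of reads were obtained at 100% of values (tolerance 1e-06). In nestling 79687 coverage was the sum of both kinds of read. A limit on this coverage therefore took in a methylated site more readily than an unmethylated site with the same number of reads. The level of the sites, like their coverage, is given as a description and without a test. The median coverage of the high-coverage sites was 51 (range 40 to 105), against 14 (range 10 to 39.5) at the other sites. The reads recovered from coverage and percentage had a median of 33 per site (range 20 to 72), against 9 (range 5 to 39) at the other sites. The limit cut a smooth tail and no separate group of sites. At a coverage of exactly 40 stood 356 sites, the first of them VYZT01000223.1 position 1401 with a mean methylation of 36.5% ± 7.44 (SD, n = 28), and just below, at 39.5, stood 22 sites, the first of them VYZT01004808.1 position 92236 with 34.1% ± 10.3 (SD, n = 27).

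The deposited high-coverage sites were of intermediate methylation. Their mean methylation over nestlings had a median of 65.1% (quartiles 50.7 and 74.7, range 9.73 to 93.4), against 87.0% (quartiles 81.4 and 90.9) at the other sites. Between 20 and 80% methylation lay 85.8% of the high-coverage sites and 20.6% of the other sites. At 80% or more lay 13% and 79.3%, and at 90% or more 0.497% and 31.0%. Below 20% lay 1.22% of the high-coverage sites and 0.0762% of the others. Single values of exactly 100% made up 0.956% of the values at high-coverage sites and 30.4% of those at other sites. A site with 9 reads reaches 100% more often than one with 33 reads at the same level, so that last pair of shares also carries the depth. The study's filter on variation left no site with an SD between nestlings below 7.41 points in the table. With 33 reads, binomial counting alone gives a smaller SD than this above a level of 76.2%, and with 9 reads only above 94.8%. The same holds at low levels, as near to 0% as these lie to 100%. A deeply read site of high or of low methylation is therefore in the table only if it varied more than counting gives. The levels above hold for sites that passed this filter, and its part in their difference was not tested.

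**Figure D1:**
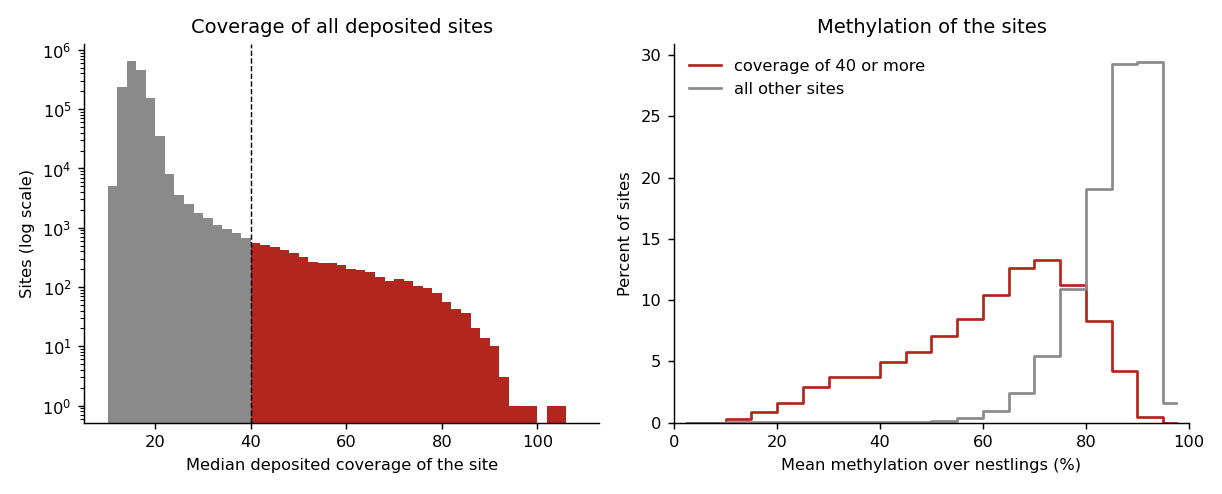
Left, number of deposited sites (log scale) by median deposited coverage, with the limit of 40 as a dashed line and the 5228 high-coverage sites in red. Right, percent of sites by mean methylation over nestlings (%, bins of 5 points) for high-coverage sites (red) and the other sites (grey). The coverage falls off without a break at 40, and the red curve has its median at 65.1% where the grey curve has it at 87.0%.

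The lower level was not limited to sites above 40. Among the other sites, 5690 had a median of 20 or more recovered reads, and their median methylation was 60% (quartiles 42 and 71.7). Among the deposited sites the level was lower in classes with more reads. It was 88.5% at sites with fewer than 10 median reads, 81.8% from 10 to under 15 reads, 66% from 15 to under 20 and 63.5% from 20 to under 25. It stayed close to that up to 40 reads, with 64.0% from 25 to under 30 and 63.2% from 30 to under 40. It was 55.6% from 40 to under 60 reads and 27.8% at the 54 sites with 60 reads or more. Ordered by deposited coverage, in which methylated reads weigh more, the high-coverage sites changed less, from 66.2% at a coverage of 40 to under 50 to 63.6% at 80 or more. The deposited coverage starts at 10 and weighs methylated reads by 2, so sites with fewer than 10 reads enter only if they are mostly methylated, and their lowest mean was 51.1%, against 2.31% from 10 to under 15 reads. The parts of this minimum and of the filter on variation in the order of the levels were not tested.

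The 3 highest coverages belonged to 3 scaffolds. VYZT01120664.1 position 95 had a median coverage of 105 from a median of 63 reads, with methylation of 61.2% ± 9.58 (SD, n = 20, range 42.3 to 81.8). VYZT01099409.1 position 82 had a coverage of 103 from 59 reads, at 83.0% ± 8.85 (SD, n = 18, range 68.3 to 100%). VYZT01033767.1 position 203 had a coverage of 98 from 56 reads, at 74.3% ± 10.1 (SD, n = 18, range 60.5 to 100%). The last value of 100% came from nestling 62618 and rested on 6 reads (95% exact binomial interval 54.1 to 100%). Such intervals cover counting error only, and not the minimum coverage, which keeps a value from fewer than 10 reads only if mostly methylated. All 3 sites lacked a value in 8 or more nestlings.

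Single high-coverage sites ranged from low to near full methylation. The highest mean was 93.4% ± 7.72 (SD, n = 28) at VYZT01099409.1 position 37, on the scaffold of a site named above, followed by 93.3% ± 7.42 (SD, n = 28) at VYZT01001380.1 position 22025. The lowest was 9.73% ± 8.11 (SD, n = 22) at VYZT01037119.1 position 753, followed by 10.3% ± 7.44 (SD, n = 27) at VYZT01007343.1 position 336724. At that last site 17 of 27 nestlings were below 10%.

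The high-coverage sites stood in tight runs. With neighbours within 1 kb joined, 4970 of the 5228 sites (95.1%) fell into 864 runs of 2 or more sites, and 258 stood alone. Neighbouring sites on the same strand can share reads and so share the coverage by which they were chosen. The share in runs is given as a description. A run held a median of 4 sites over a median span of 121 bp. The 121 runs of 10 or more sites held 1880 sites (36.0%), the most sites in a run were 57, and the longest run spanned 1890 bp. Neighbouring high-coverage sites were a median of 15 bp apart and 90.7% of these gaps were within 100 bp, against 18 bp and 75.7% between neighbouring sites of the whole table. Within the span of a run a median of 83.3% of the deposited sites were of high coverage, and in 370 runs all of them were.

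They were concentrated on the shortest scaffolds. Scaffold lengths were not used here, so the position of the last deposited site stands in for them. Scaffolds whose last site lay below 500 bp held 26.1% of the high-coverage sites and 0.701% of the others. On these scaffolds 11.1% of all deposited sites were of high coverage, against 3.81% where the last site lay at 500 to under 1000 bp, 1.14% at 1000 to under 5000 bp and 0.117% at 100000 bp or beyond. On 101 scaffolds each deposited site was of high coverage, and the 303 scaffolds where they made up 50% or more of the sites held 1650 (31.6%). The long scaffolds still took part, since 969 high-coverage sites (18.5%) lay on scaffolds with a last site at 100000 bp or beyond. The level differed little along this scale, with medians of 67.5% below 500 bp, 59.9% from 5000 to under 20000 bp and 65.0% at 100000 bp or beyond.

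The scaffold with the most high-coverage sites was VYZT01113364.1, on which they made up 57 of 88 deposited sites, all in the single run at positions 216 to 462. Their median coverage was 71 and their median methylation 42.6% (range 27.7 to 62.3), against a coverage of 21 and 88.3% at the other 31 sites of the scaffold. VYZT01002674.1 held 54 of 179 sites, between positions 175 and 2847, with a median methylation of 30.1% against 42.1% at its other sites. VYZT01015826.1 held 44 of 154, between positions 10006 and 10310, with 26.8% against 79.2%. The 3 scaffolds thus held sites well below the median of 65.1%, but the difference from the rest of the scaffold was not the same on each.

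**Figure D2:**
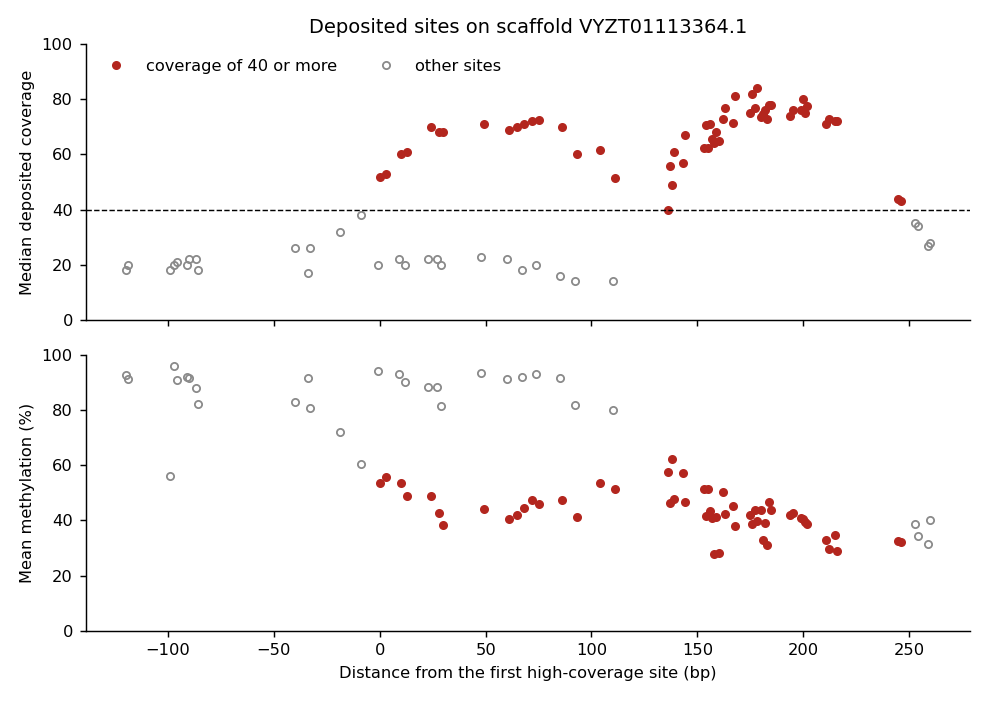
Median deposited coverage (upper panel) and mean methylation in percent (lower panel) of the 88 deposited sites on scaffold VYZT01113364.1 by distance from the first high-coverage site in bp, with high-coverage sites filled red, other sites as open grey circles and the coverage limit of 40 dashed. Up to 111 bp from the first site, high-coverage sites (coverage 51.5 to 72.5, methylation 38.3 to 55.6%) are interleaved with 12 other sites. Those 12 have a coverage of 14 to 23 and methylation of 79.9 to 93.2%. From 136 bp to the end of the run all sites are of high coverage.

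In the first stretch of this run low and high coverage stood at neighbouring bases. All 12 sites of lower coverage within the run lay at or before position 326, among 17 high-coverage sites, and the 40 sites from position 352 to 462 were all of high coverage. The pairs named here come from the first stretch. Position 239 had a coverage of 22 and methylation of 88.3% ± 8.13 (SD, n = 24), and position 240, the next base, a coverage of 70 and 48.6% ± 8.87 (SD, n = 28). Position 243 had 22 and 88.2% ± 10.2 (SD, n = 24), and position 244 had 68 and 42.6% ± 9.58 (SD, n = 28). Position 264 had 23 and 93.2% ± 7.43 (SD, n = 23), and position 265 had 71 and 44.0% ± 11.7 (SD, n = 28). In each of these pairs the second base had about 3 times the coverage of the first and a lower level by far more than the SD between nestlings.

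CpG sites at adjacent positions are cytosines on opposite strands, either of 1 CpG or of neighbouring CpGs where a CpG directly follows another. The methods state that both strands were collapsed into a single value, but 606036 sites of the table (38.7%) had a neighbour 1 base away, and so did 3365 of the high-coverage sites (64.4%). Of the pairs with no further neighbour 1 base away, 821 had high coverage on both strands. There the 2 strands differed by a median factor of 1.16 in coverage and by a median of 3.52 points in methylation. In 1585 pairs only 1 strand was of high coverage, with a median coverage of 48 against 26.5 on the partner strand, and the median methylation was 65.9% against 68.4%. The high-coverage strand was the less methylated in 58.2% of these pairs.

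The strands differed more where the partner was an ordinary site. In 337 pairs the partner had a coverage under 20, with medians of 48 against 16. The median methylation was 66.3% on the high-coverage strand and 71.5% on its partner, the high-coverage strand was lower in 239 pairs (70.9%), and 23 pairs were 25 or more points apart. Where the partner had a coverage of 30 to under 40, the high-coverage strand was lower in 49.1% of 658 pairs. The filter on variation and the minimum coverage, described above, bear on all these strand differences, and their part was not tested. Among 284077 pairs without a high-coverage strand the median factor was 1.14, and 0.135% had a factor of 2 or more.

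Coverage and methylation returned to the ordinary level with distance. Other sites 1 base from a high-coverage site had a median coverage of 26.5 and a median methylation of 68.4%. At 51 to 100 bp these were 24 and 70.3%, at 101 to 200 bp 20 and 74.8%, and at 201 to 500 bp 16 and 80.5%. From 501 to 1000 bp they were 16 and 85.5%, against 14 and 87.0% on scaffolds without a high-coverage site. The median recovered reads fell over the same distances, from 19 at 1 bp to 9 from 501 to 1000 bp, and the filters described above bear on these levels too.

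**Figure D3:**
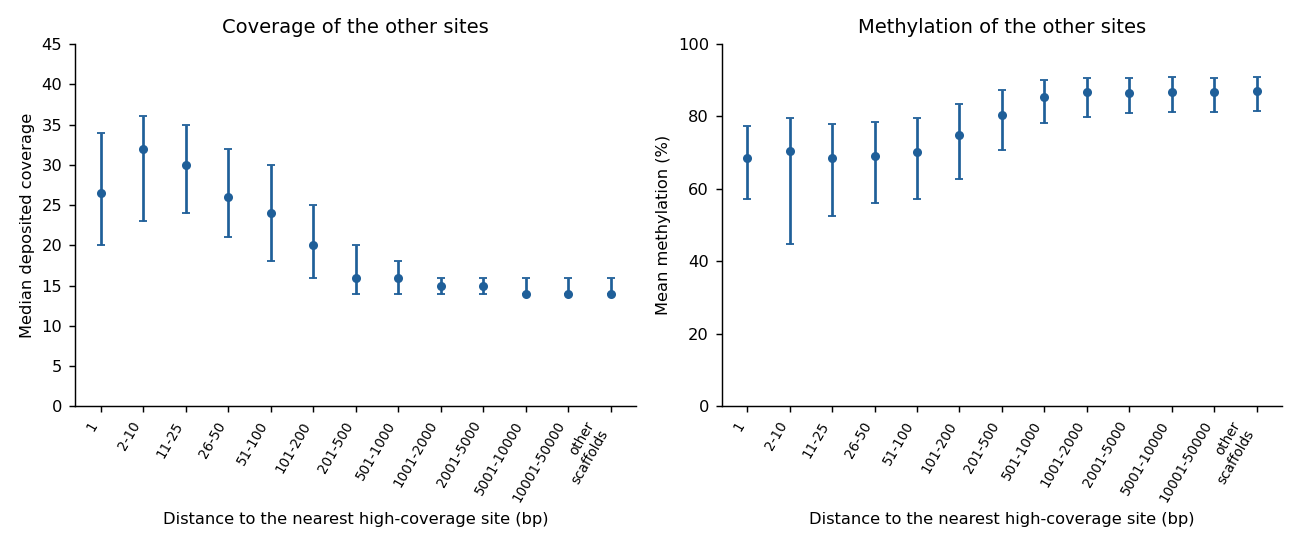
Median deposited coverage (left) and mean methylation in percent (right) of the other sites by distance in bp to the nearest high-coverage site, with points at the median over sites and bars from the lower to the upper quartile. Coverage falls from 26.5 at 1 bp to 14 on other scaffolds while methylation climbs from 68.4 to 87.0%.

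In each nestling the high-coverage sites stood well above the other sites in reads. They were chosen by their coverage in these nestlings, so this largely follows from the choice and is a description. The median reads at high-coverage sites over those at other sites had a median of 3.86 over group nestlings (range 3.08 to 4.25) and of 3.89 over pair nestlings (range 2.75 to 4.13), so the classes overlapped. Pair nestling 62618 stood lowest at 2.75, with a value at 55.0% of the high-coverage sites. Pair nestling 79563 had a value at 78.7%, and the other 26 nestlings at 86.7 to 99.1%. In 1687 high-coverage sites (32.3%) all 28 nestlings had a value, against 0.387% of the other sites. The methods removed the highest coverages of each nestling, and in many nestlings the absent sites were those of most coverage. In nestling 62645 the absent sites had a median coverage of 73 over nestlings and the present ones 50. In nestling 62618 these were 50 and 52, so its absent sites were no deeper than those it kept.

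Relative to the nestling's own other sites, a high-coverage site had a median of 3.81 times the reads (range 2.08 to 8.38), which also largely follows from the choice. The coefficient of variation of this ratio between nestlings had a median of 0.303. The nestling with the highest ratio exceeded the lowest by a median factor of 4.37, and by 4 or more at 2929 sites (56.0%).

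Between nestlings the percentages varied slightly more than their reads alone would give. The SD between nestlings had a median of 9.31 points (range 7.41 to 42.9), against 10.9 points at the other sites, where fewer reads stood behind each value. The SD expected from binomial counting of the recovered reads had a median of 8.27 points, against 11.5 at the other sites. The variance was a median of 1.31 times the binomial variance at high-coverage sites and 0.947 times at the other sites, and exceeded 2 times at 14.6% and 2.73%. Since the study's filter on variation left no site with an SD below 7.41 in the table, these ratios hold for sites that passed it. A filter on the SD keeps a deeply read site only if it varies, so the ratios of deep and shallow sites are not on an equal footing.

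Neighbouring high-coverage sites moved together across nestlings. Pearson's r of their percentages had a median of 0.244 at 1 bp (889 neighbours), 0.433 at 2 to 10 bp (864), 0.248 at 11 to 50 bp (1604) and 0.0885 at 51 to 200 bp (603). Neighbours on the same strand can share reads, whereas those 1 base apart lie on opposite strands. No such r is given for the other sites, and these values are a description of the libraries. Nestlings with the same natal group code differed over the high-coverage sites by about as much as others. Several of these pairs share a nestling, and counting error is part of each difference, so a small likeness could be missed. The mean absolute difference had a median of 11 points over 12 pairs of nestlings with the same code (range 10.1 to 12.4). This lay within the range of 9.32 to 13 over 366 pairs with different codes (median 11.1).

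An SD of 20 points or more was found at 24 high-coverage sites (0.459%), on 16 scaffolds, against 1.49% of the other sites. Fewer reads stood behind each value at the other sites, so these shares are not on an equal footing. The 3 high-coverage sites with the highest SD were singled out after their values were seen. At VYZT01108932.1 position 131, the single deposited site of its scaffold, 20 nestlings had a value and the SD was 42.9 points. The nestlings fell into separate ranges there. In 13 nestlings methylation was 0 to 12.8% from 47 to 117 reads, and in 7 nestlings it was 71.4 to 100% from 6 to 14 reads. At VYZT01125317.1 position 1335 the SD was 39.5 points. There 14 nestlings had 0 to 8.33% from 43 to 93 reads and 7 had 60 to 100% from 5 to 10 reads. Of the 19 nestlings with a value at both sites, 13 were low at both, 6 were high at both and none was low at one and high at the other. Nestlings with many reads were low at both sites, and those with few reads were high. Because of the minimum coverage, a value from fewer than 10 reads was deposited only if mostly methylated. A low level from so few reads could thus not appear here. The part of this minimum in the split, in its match between the sites and in the SD was not tested.

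VYZT01110680.1 position 318 varied in another way. All 28 nestlings had a value, with an SD of 37.4 points. In 8 nestlings, 4 of each carer class, methylation was 0% from 14 to 44 reads. It was 14.3 and 27.8% in a pair of further nestlings and 53.3 to 95.7% in the other 18. Reads there did not separate the nestlings into the same ranges as at the sites before, since r of its relative reads with those of VYZT01108932.1 position 131 was 0.0484.

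The reads at VYZT01108932.1 position 131 followed a pattern that other scaffolds shared. Pearson's r of the log2 relative reads with those of this site, over at least 12 shared nestlings, was 0.8 or more at 71 of 5226 high-coverage sites compared (1.36%), itself included, and -0.8 or less at 0. Another 5 sites had r from 0.6 to under 0.8, and 32 had r of -0.6 or less. Of 1530025 other sites compared, 263 (0.0172%) had an r of 0.8 or more and 547 of -0.8 or less. The other sites had fewer reads, and neighbouring sites on a strand can share reads, so these shares are not on an equal footing. The limit on the median coverage also takes in a site that is deep in most nestlings, as the reference site was. It tends to leave out a site that is deep only in the remaining nestlings. The choice of the sites thus bears on the 71, on the 0 and on both shares, which are a description. The 71 sites lay on 13 scaffolds, 12 of them with a last site below 1000 bp. They made up 71 of the 73 high-coverage sites on these scaffolds, and 27 of the 31 other sites there also had an r of 0.8 or more. The scaffolds with the most such sites were VYZT01068997.1 and VYZT01121781.1 with 15 each, VYZT01116624.1 with 9 and VYZT01121700.1 with 8. This search was made after the values were seen, and the points share the libraries and their depth.

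By nestling, the reads at these 71 sites relative to the nestling's other sites ranged from 0.833 to 6.14, taken as the median over scaffolds. The sites were chosen for relative reads that follow those of a single site, so a spread between nestlings follows from the choice. The nestlings were cut at the widest gap of these values on the log2 scale, and both ranges are a description. In 12 nestlings the value was 0.833 to 1.5, so that the deposited values had about the depth of ordinary sites. A value needs at least 5 reads, so a depth far below that could not be seen. These 12 nestlings had a value at 16 to 64 of the 71 sites, and the others at 17 to 71. In the other 16 it was 2.42 to 6.14. The 2.42 of nestling 62618 and the 1.375 of nestling 79563, in the lower range, each rested on 3 scaffolds. Of the lower 12, 8 were raised by groups and 4 by pairs, and of the upper 16, 11 and 5. The 71 sites had a value in 18 to 23 nestlings (median 20). Their mean methylation ranged from 13.2 to 92.3%, with medians of 31.7% on VYZT01068997.1 and 30.4% on VYZT01121781.1 and of 71.4% on VYZT01116624.1 and 79.7% on VYZT01121700.1. What sets the reads of a nestling at these scaffolds was not tested.

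**Figure D4:**
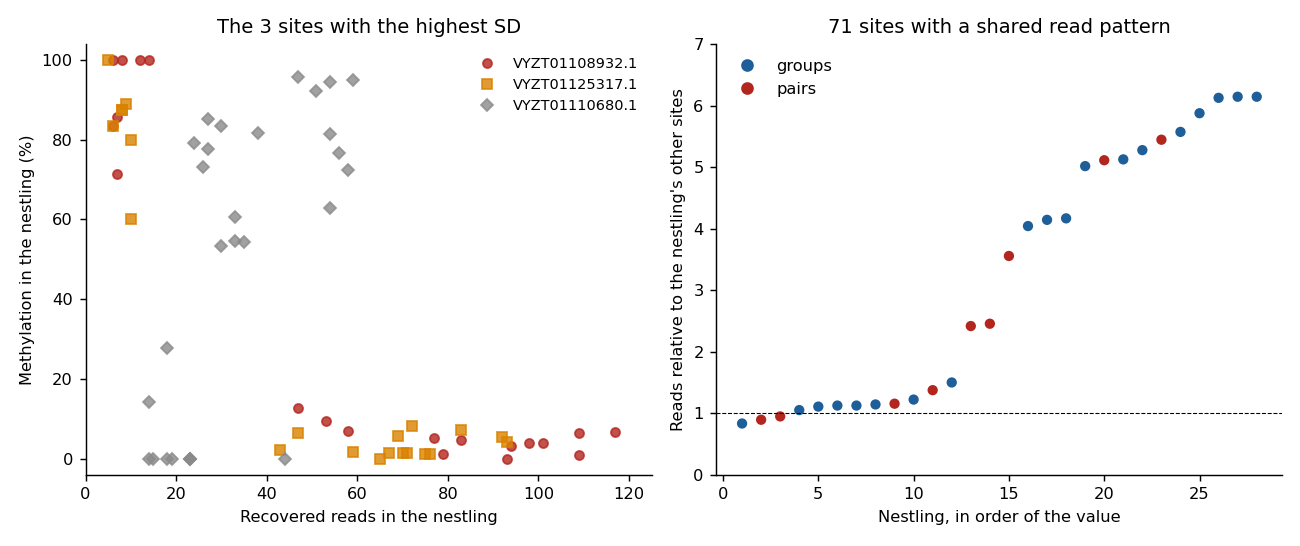
Left, methylation in percent against recovered reads, 1 point per nestling, at the 3 high-coverage sites with the highest SD. Right, reads at the 71 sites with a shared read pattern relative to the nestling's other sites (median over scaffolds with a value). There is 1 point per nestling, from up to 13 scaffolds, in order of its value. Groups are blue, pairs are red and the dashed line is at 1. Cut at the widest gap on the log2 scale, the value lies at 0.833 to 1.5 in 12 nestlings and at 2.42 to 6.14 in 16. Both carer classes are in each range.

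Over all high-coverage sites, nestlings raised by groups and by pairs differed in level by less than the spread between nestlings. The mean over the high-coverage sites of a nestling was 61.8% ± 0.884 in groups (SD, n = 19). In pairs it was 62.1% ± 1.82 (SD, n = 9), so that groups minus pairs gave -0.26 points. The group nestlings ranged from 60.6 to 63.4% (median 61.5) and the pair nestlings from 58.8 to 65.0% (median 61.7), so that the pairs covered the whole range of the groups. The ends of the range were pair nestlings 79676 at 58.8% and 62618 at 65.0%. Without nestling 62618 the difference was 0.11 points, and without nestling 79676 it was -0.66 points. Measured as the deviation from each site's mean, it was -0.18 points at high-coverage sites and 0.84 points at the other sites. At the other sites the groups stood at 0.437 ± 1.66 and the pairs at -0.401 ± 1.53 points (SD), so this too was less than the spread. The median reads of a nestling at the other sites had a median of 8 in groups and 9 in pairs. The part of the minimum coverage in the 0.84 was not tested.

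The question of the study was whether methylation differed between nestlings raised by a group and by a pair. At high-coverage sites no site was called in the fit used here. A beta regression with carer class and age as terms was fitted at each of the 1564780 sites, with a Wald test of the carer term and Benjamini-Hochberg adjustment over all sites. A call needed an adjusted p of at most 0.01 and model-predicted means at least 25 points apart. Of the 5228 high-coverage sites 0 were called, against 25 of all sites (0.0016%), a share at which 0.0835 high-coverage sites would be called, so the 0 is near the background. The paper reports many more sites at the same limits among as many tested, from a model that also held brood and cross-fostering status. The background given here is thus that of this fit only. With limma on the logit values 0 high-coverage sites and 0 of all sites were called. An unadjusted p under 0.05 was found at 377 high-coverage sites (7.21%), against 8.48% of all sites, and with limma at 17 (0.325%), against 4.92%. With limma the variance of each site is drawn towards a value fitted over all sites, most of which have fewer reads. The part of this in the lower share with limma was not tested. The smallest adjusted p at a high-coverage site was 0.0279 in the beta regression, so that 0 had an adjusted p of at most 0.01, against 0.0779% of all sites. Without nestling 79676 the p alone was passed by 2 high-coverage sites (smallest adjusted p 0.00509), against 0.0909% of all sites, and with natal group means as units by 1 (adjusted p 0.00882), against 0.184%. Their fitted differences were under 25 points, and no call was made.

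The direction of the carer term was close to even in the fit to all nestlings and turned without nestling 79676. Of the 377 sites, 195 were higher in groups (3.73% of high-coverage sites, against 6.2% of all sites) and 182 lower (3.48%, against 2.29%). Over all high-coverage sites 50.3% were higher in groups, with a median difference of 0.03 points, against 56.7% and 0.74 points over all sites. Without nestling 79676 these were 46.4% and -0.42 points at high-coverage sites, with natal group means as units 46.9% and -0.31 points, and without nestling 62618 52.7% and 0.25 points. Over all sites the share stayed between 55.8 and 56.7% in these fits. Most of those sites had fewer reads, so the minimum coverage described above bears on them more, and its part in that share was not tested. A difference of 10 points or more, in either direction, was fitted at 112 high-coverage sites (2.14%) and at 5.99% of all sites. Most of all sites had fewer reads, so the shares are not on an equal footing.

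The site with the smallest carer p and a higher level in groups was VYZT01116624.1 position 110, on 1 of the 13 scaffolds with the shared read pattern. Methylation in 15 group nestlings was 83.3 to 100% (median 92.6) and in 7 pair nestlings 72.7 to 93.1% (median 84.6). The ranges overlapped from 83.3 to 93.1%. The fitted difference was 9.76 points, with a carer term of 0.87 (SE 0.22) on the logit scale and an adjusted p of 0.0382 in the beta regression. The median reads were 31 in group and 13 in pair nestlings, the relative reads had an r of 0.919 with VYZT01108932.1 position 131, and 5 to 45 reads stood behind a value. The part of these reads in the difference was not tested.

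At VYZT01000223.1 position 1401, which had a coverage of exactly 40, methylation was 29.2 to 47.6% (median 38.1) in 19 group nestlings and 14.8 to 45.2% (median 29.8) in 9 pair nestlings. The lowest values were those of pair nestlings, but the ranges overlapped. The fitted difference was 8.53 points with an adjusted p of 0.0456 in the beta regression.

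The smallest carer p with a lower level in groups was at VYZT01065746.1 position 103. Methylation there was 59.1 to 83.3% (median 68.8) in 19 group nestlings and 70.7 to 88.9% (median 79.4) in 8 pair nestlings. The fitted difference was -10.34 points with an adjusted p of 0.0279 in the beta regression. At VYZT01024445.1 position 1744 it was 34.5 to 57.6% (median 45.2) in 17 group nestlings and 52.2 to 67.2% (median 57.7) in 7 pair nestlings. The fitted difference there was -11.47 points with an adjusted p of 0.0442 in the beta regression. In these sites too the ranges of the classes overlapped, and none of the 4 had a fitted difference near 25 points.

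**Figure D5:**
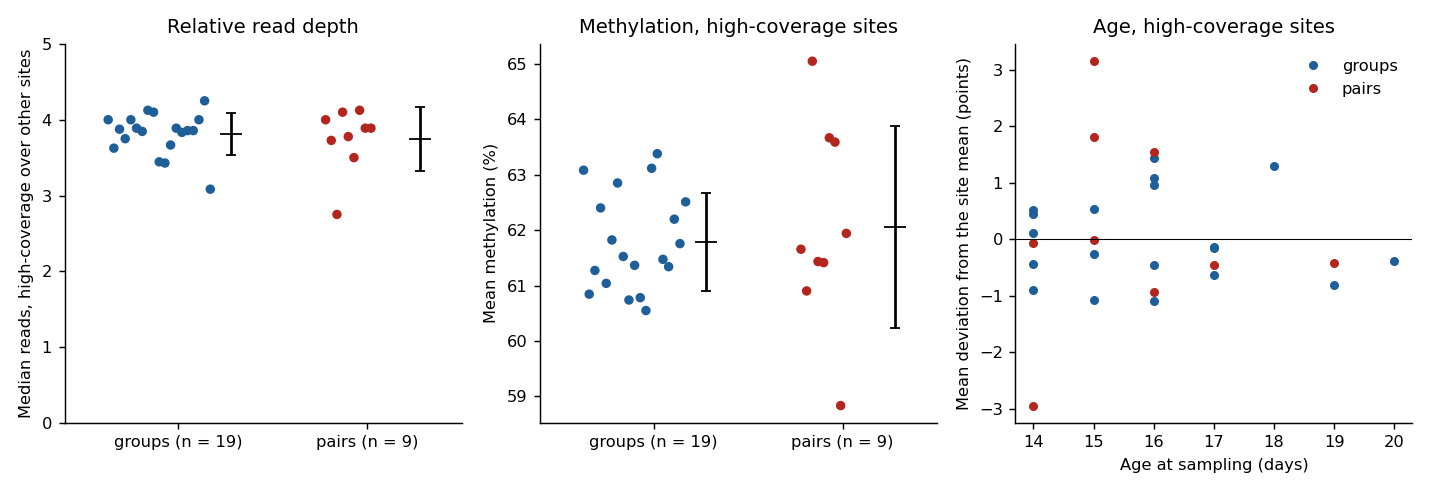
Left, median reads at high-coverage sites over median reads at the other sites. Middle, mean methylation (%) over the high-coverage sites, on an axis that does not start at 0. Both show 1 point per nestling (groups blue, n = 19, and pairs red, n = 9) with the mean and SD as a black bar. Right, mean deviation of each nestling from the site means (percentage points) by age in days. The pairs span 58.8 to 65.0% and enclose the groups at 60.6 to 63.4%, and no trend with age stands out from the spread.

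Age was a covariate of the study's model. The mean deviation from the site means at high-coverage sites was -0.47 ± 1.20 points at 14 days (SD, n = 7), 0.69 ± 1.54 at 15 days (SD, n = 6), 0.36 ± 1.15 at 16 days (SD, n = 7) and -0.35 ± 0.24 at 17 days (SD, n = 4). The 4 nestlings of 18 to 20 days lay between -0.82 and 1.30 points. These ages overlapped, and the slope was -0.0189 points per day at high-coverage sites, against 0.0679 at the other sites. It was 0.0177 without nestling 62618 and -0.100 without nestling 79676, so that its sign rested on single nestlings. At the other sites it was 0.0642 and 0.0268 without the same nestlings, 0.185 within groups and -0.324 within pairs.

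In the same beta regression, 0 high-coverage sites were called for age, with model-predicted means at 14 and 20 days compared, against 399 of all sites (0.0255%). At that share 1.33 high-coverage sites would be called. With limma 0 high-coverage sites and 0 of all sites were called. An unadjusted p under 0.05 was found at 375 high-coverage sites (7.17%), against 8.1% of all sites. With limma it was found at 14 (0.268%), against 5.13%, and the limit given for limma above holds here too. Of the 375, 183 (3.5%) were higher and 192 (3.67%) lower at higher age, against 3.73% and 4.37% of all sites. At 749 high-coverage sites (14.3%) the fitted difference between 14 and 20 days was 10 points or more, against 23.4% of all sites. Here too most of all sites had fewer reads.

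The 2 sites with the smallest age p in each direction shifted over the sampled ages without passing the limit. VYZT01057479.1 position 3933 was higher at higher age. It ranged from 58.8 to 83.3% (median 69.2) in 9 nestlings of 14 to 15 days and from 61.5 to 84.4% (median 76.3) in 8 of 16 to 17 days, and 3 of 19 to 20 days had 80, 100 and 100%. The values of 100% rested on 7 and 6 reads (95% exact binomial intervals 59.0 to 100% and 54.1 to 100%). The fitted difference was 25.37 points with an adjusted p of 0.0323 in the beta regression. It passed both filters in a pair of alternative fits, with natal group means as units, where 0.12% of all sites were called for age, and with values limited to 0.001 from either end, where 0.0286% were. VYZT01106948.1 position 185 had 63.6 to 96.2% (median 73.5) in the youngest 13 nestlings and 87.5 to 95% (median 89.9) in the oldest 4, with a fitted difference of 17.14 points and an adjusted p of 0.0433 in the beta regression.

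VYZT01034836.1 position 1029 was lower at higher age and lay in the run of 37 high-coverage sites at positions 669 to 1155. It ranged from 41.7 to 88.6% (median 70.0) in 13 nestlings of 14 to 15 days, from 40.5 to 81.6% (median 59.4) in 11 of 16 to 17 days and from 33.3 to 46.7% (median 44.2) in 4 of 18 to 20 days. The oldest nestlings lay at the low end of the younger ones and overlapped with them. The fitted difference was -32.89 points with an adjusted p of 0.0469 in the beta regression, so the size passed the filter and the p did not. VYZT01115053.1 position 204 had 70.6 to 95.2% (median 80.8) in the youngest 12 and 54.5 to 83.9% (median 70.3) in the oldest 4, with a fitted difference of -19.58 points and an adjusted p of 0.0598 in the beta regression.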

How the data were processed

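Blood DNA of 28 nestlings was sequenced after enzymatic conversion. Per the paper's methods, the authors trimmed reads with HTStream, mapped them to the babbler genome and called CpGs with Bismark (versions are not given in the sources used here), removed sites of low or extreme coverage per nestling, and kept sites present in most nestlings of each carer class and with variation. The deposited percent values are methylated over all reads per site and nestling. The deposited coverage is a weighted signal from which reads were recovered. Methylated and unmethylated read counts were deposited only for nestling 79687. At least 5 reads stood behind each value. The deposited age, carers, natal group code and site variance were read as given, and 5 other columns with values of single nestlings were left out. Positions are as the authors gave them.

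Sites with a median coverage of 40 or more were taken, nestling 79687 left out of the median. This rule, the named sites and the tests were chosen with earlier results of these data known. All 1564780 sites were fitted by a beta regression (logit link, maximum likelihood, Wald test) with terms for carers and age, after values were moved off 0 and 1 by (y(n-1)+0.5)/n, and with Benjamini-Hochberg adjustment over all sites. The fitting code was also run on simulated data. There the nestlings were independent and values were kept off 0 and 1 in another way, so the move given above was not tested. The study's model also held brood and cross-fostering status, which were not used here, so the p-values treat nestlings as independent, although 12 pairs of nestlings shared 1 of the 19 natal group codes. Named sites were the 3 of highest coverage (at most 1 per scaffold), the 2 with the smallest carer and age p in each direction, the 2 of highest and of lowest methylation, the first on each side of the limit and the 3 scaffolds with the most sites. The 3 of highest SD and the sites with a shared read pattern were chosen after their values were seen. Alternatives were limma on logit values, natal group means, other limits, values with at least 10 reads and fits without nestlings 79687, 79676 or 62618. Fits used numba 0.67.0, scipy 1.17.1 and numpy 2.4.6 under Python 3.11.15, and limma 3.58.1 ran under R 4.3.3.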

Additional observations from a re-analysis of the deposited data

Results flagged for a closer look

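Pair nestling 62618 stood apart from the other 8 pair nestlings in 2 measures of the high-coverage sites. It had a value at 55.0% of them, and its median reads there were 2.75 times those at its other sites. It also had a value at only 52.0% of the other sites, so its missing values were not particular to the high-coverage sites. Both gaps exceeded Dixon's 95% critical value. Of 23 sets of values tested in this way 2 stood apart, and chance gives about 1 in 20. Both come from the reads of the same nestling at sites chosen by coverage, so they are not independent of each other. Its mean methylation over the high-coverage sites it kept, 65.0%, was also the highest of all nestlings.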

How the results depend on the processing

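No high-coverage site was called for carers under any of the alternatives run, although 2 without nestling 79676 and 1 with natal group means passed the limit on the adjusted p. For age 1 site, VYZT01057479.1 position 3933, was called with natal group means as units (30 points, adjusted p = 9.69e-05 in the beta regression) and 1 site, the same, with values limited to 0.001 from either end (32.2 points, adjusted p = 0.00741). With natal group means as units, 8 high-coverage sites (0.153%) passed the limit on the adjusted p for age. The share of all sites that passed this limit alone is not given here, so the 0.153% has no background to be set against. A call also needed the limit on the fitted difference. In that fit 0.0191% of high-coverage sites were called for age, against 0.12% of all sites. Among the 8 was VYZT01115053.1 position 204 (-21.3 points, adjusted p = 0.00612 in the beta regression). The fits without nestlings 79687, 79676 or 62618 called 0. The 8 sites named for carers or age kept their direction under all 54 alternatives run on them, but not their small adjusted p. With limma it was 0.996 at each site named for carers and 0.968 or 0.969 at each named for age. In the beta regression with natal group means it rose at VYZT01065746.1 position 103 (0.169), VYZT01000223.1 position 1401 (0.125) and VYZT01024445.1 position 1744 (0.0568). It fell at the others. These sites were chosen for a small p in each direction in the same data. The alternatives refitted the same nestlings, so a kept direction was likely and is no independent check. The fit to values with at least 10 reads gave no result for VYZT01057479.1 position 3933 or for the named carer site on VYZT01116624.1. A coverage limit of 30 gave 10257 sites with a median methylation of 67.7% and 96.1% of them in runs, and a limit of 60 gave 1569 sites with 63.7% and 86.2%. A median of 30 or more recovered reads gave 3831 sites with 60.6% and 93.5%. With neighbours within 100 bp joined, 89.9% lay in runs, and with sites 1 base apart counted as 1 site (chosen after seeing the data) 93.3%. Without the scaffolds whose last site lay below 1 kb (also chosen after seeing the data) the median methylation was 63.9%. The recovered reads, a median of 33 per site and nestling, limit the precision of a single percentage to about the binomial SD of 8.27 points. No paired analysis was possible because the labels give the nestlings no shared numbers.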

Other observations

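Within single high-coverage sites, reads and methylation moved together across nestlings in no common direction. Pearson's r of the percentage with the log2 relative reads had a median of -0.0271 over the 5228 sites (80% of sites between -0.389 and 0.339). At the 71 sites with the shared read pattern the median was 0.0998 (80% between -0.53 and 0.616, range -0.971 to 0.856), so that the relation at VYZT01108932.1 position 131, few reads with high methylation, was at the negative end of that set.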
